A study of Homo sapiens with 24 samples.

Results

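Of the 97545 H3K4me3 regions listed for EndoC-βH3 cells, 373 begin inside 6 windows next to centromeres or on the short arms of acrocentric chromosomes. The windows (hg38) lie at 142-144 Mb of chromosome 1, 48-50 Mb of chromosome 4, 40-42 Mb of chromosome 10, 28-30 Mb of chromosome 20, 6-10 Mb of chromosome 21 and 10-12 Mb of chromosome 22. They were chosen by a measured value, because many of their regions were seen to be raised in the authors' comparison of senescent with non-senescent cells. The columns of that comparison are not used here, so the values below do not say which state carries the mark. A region belongs to a window when its start lies inside it, and the 1380 regions within 5 Mb on either side of the windows served as the flanks.

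EndoC-βH3 is a human beta cell line made from fetal pancreas by introducing hTERT and the SV40 Large T antigen, both of which tamoxifen-induced Cre removes. The 4 non-senescent samples (genotype label WT, treatment label control) still carry these transgenes. The 4 senescent samples are from the same line after 3 weeks of 4-hydroxytamoxifen, so loss of the transgenes and senescence go together and cannot be told apart. H3K4me3 was profiled by MINT-ChIP, a multiplexed chromatin immunoprecipitation, from 500000 cells per sample. Each region comes with a single value, the authors' mean over samples of its DESeq2-normalized read count, termed the mean normalized count below. It has no value per sample, no SD and no n, and the depth of each sample is unknown. It was not set against an input control, so what background adds to counts in repeated sequence was not tested.

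H3K4me3 is known as a mark of active gene starts, where it covers the nucleosomes around CpG-rich promoters. The sequence next to human centromeres is largely satellite DNA, arrays of short units repeated head to tail. Alpha satellite has a unit about as long as the DNA on a nucleosome and forms the centromere itself, and some of its units carry the CENP-B box, a binding motif of a centromere protein. Human satellites II and III are arrays of diverged copies of the pentamer CATTC, which reads GAATG on the other strand. The short arms of the acrocentric chromosomes hold the ribosomal RNA genes and long duplicated blocks shared between chromosomes. Reads from such sequence are hard to place, since many copies are alike.

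Stretches of 5 members show the main kinds of repeated sequence found in the windows, those of high count and the alpha satellite type of low count. In the strongest member of the chromosome 1, 4 and 10 windows, each stretch is the 150 bases with the most pentamer units on the forward strand of hg38, with every CATTC or GAATG in capitals.

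chr1:143194000-143194149: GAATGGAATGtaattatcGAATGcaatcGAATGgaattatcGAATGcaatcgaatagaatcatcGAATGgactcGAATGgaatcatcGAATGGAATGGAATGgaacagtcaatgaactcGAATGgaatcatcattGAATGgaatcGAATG
chr4:49102420-49102569: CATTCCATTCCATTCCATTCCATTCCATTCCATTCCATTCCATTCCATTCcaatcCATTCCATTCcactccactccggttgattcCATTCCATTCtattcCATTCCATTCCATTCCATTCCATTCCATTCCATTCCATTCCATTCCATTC
chr10:41858281-41858430: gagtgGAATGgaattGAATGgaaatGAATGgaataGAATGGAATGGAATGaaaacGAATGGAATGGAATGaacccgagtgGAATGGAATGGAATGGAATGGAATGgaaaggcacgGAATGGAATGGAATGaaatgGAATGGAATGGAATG

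The chromosome 1 stretch holds 13 units and is the most diverged, the chromosome 4 stretch holds 24 and the chromosome 10 stretch 20. On the forward strand the unit reads CATTC in the chromosome 4 stretch and GAATG in the other stretches, while some closest copies within the chromosome 1 and chromosome 4 arrays lie on opposite strands. The strongest member near the ribosomal RNA genes of chromosome 21 holds a pyrimidine-rich simple repeat, shown with each TCTC in capitals.

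chr21:8464645-8464794: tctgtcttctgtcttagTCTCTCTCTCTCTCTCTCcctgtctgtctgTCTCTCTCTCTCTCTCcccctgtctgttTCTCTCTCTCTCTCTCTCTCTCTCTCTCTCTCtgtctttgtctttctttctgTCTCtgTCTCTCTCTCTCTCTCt

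The strongest member of the chromosome 20 window with an alpha satellite period is shown as a pair of neighbouring units of equal length, and the 159 bases they share at the same place in the unit are in capitals.

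chr20:28840689-28840859: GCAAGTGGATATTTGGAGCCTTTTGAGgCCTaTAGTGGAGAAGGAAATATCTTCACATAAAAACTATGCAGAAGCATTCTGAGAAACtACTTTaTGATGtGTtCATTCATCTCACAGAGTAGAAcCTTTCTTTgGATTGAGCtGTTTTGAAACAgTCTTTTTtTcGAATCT
chr20:28840860-28841030: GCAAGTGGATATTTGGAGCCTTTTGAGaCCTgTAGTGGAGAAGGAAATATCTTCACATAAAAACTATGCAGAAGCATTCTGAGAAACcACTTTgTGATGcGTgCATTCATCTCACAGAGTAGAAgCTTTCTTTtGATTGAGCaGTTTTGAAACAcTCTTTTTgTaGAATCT

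The windows held 35.8 regions per Mb of sequenced bases (10.4 Mb), the flanks 31.1 and the table as a whole 33.2. The ratio to the flanks was 1.15 (95% interval from counting, 1.03 to 1.29). It differed between the windows. Chromosome 22 had 53.1 regions per Mb against 7.50 in its flanks, and chromosome 10 had 22 against 46.1. The flanks of chromosomes 1 and 22 hold regions only after the window, none before it. The chromosome 1 window is mostly unsequenced, with 0.815 Mb of known bases, and its 49 members all lie after the gap. All intervals here cover counting error and treat regions as independent, which copies of one sequence are not.

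The median mean normalized count was 5.28 in the windows (95% interval 4.40 to 6.64) and 4.51 in the flanks (4.13 to 5.02), and these intervals overlap. The upper end differed more. Members over 100 numbered 29, or 7.77%, against 4.71% of flank regions and 2.60% of all regions. The windows were chosen from a comparison of the same samples, and a raised region adds to its own mean. That choice can favour high counts in the windows, so these contrasts are a description only. Divided by width, 46 members exceeded 50 counts per kb, or 12.3%, against 2.10% of flank regions and 0.446% of all regions. Members were thus 0.382% of the table, while they supplied 46 of its 435 regions at that density. The median width was 566 bases in the windows and 665 in the flanks, and 166 members had exactly 500 bases (44.5%, against 37.1% of all regions). The median GC content was 39.2% in the windows and 41.0% in the flanks.

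A member's copy number was taken from up to 60 stretches of 24 bases spread over it, as the median number of places where each occurs in hg38. Copies absent from hg38 are not counted, and mean normalized counts were not divided by copy number. Of the members, 236 (63.3%, Wilson 95% interval 58.3 to 68.0%) had a copy number over 2 and are termed multi-copy, against 14.9% of flank regions and 4.00% of all regions. The share was highest on chromosome 21, where 75 of 95 members were multi-copy against 22.1% of the flanks. On chromosome 22 the flanks were as rich in copies as the window, with 73.5% and 63.0% multi-copy. Most members still held sequence of their own. The median member had 78.3% of its 50-base stretches only once on the assembled chromosomes, and only 3 members had none. When unplaced and unlocalized sequences were searched as well, 26 members had none, 23 of them on chromosome 21, out of 59 such regions in the whole table. The table lists regions on assembled chromosomes only.

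The label of a repeat-rich region did not hold throughout. On chromosome 4, the 40 members up to the end of CWH43 (4:49062081) lie among single-copy genes, and 2 of them (5.00%) were multi-copy. Of the 30 beyond it, 29 (96.7%) were. The median mean normalized count was 5.53 in the first set and 36.2 in the second.

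Members were sorted into 7 classes in a fixed order: within 50 kb of an annotated 5.8S ribosomal RNA gene of chromosome 21, at least 30 pentamer units per kb, self-identity of at least 50% at a shift of about 1 alpha satellite unit (the alpha period), within 2 kb of a protein-coding start site, within 2 kb of another start site, other multi-copy, and other few-copy. The limits were set after these features had been seen, and the period by itself does not name a repeat family. Pentamer-rich members (70) made up 18.8% of the members and 48.6% of their summed mean normalized count. The 14 members near ribosomal RNA genes added 15.5%, and the 24 at starts of noncoding genes or pseudogenes 15.2%. A single one of these 24, a chromosome 21 member that lies in no annotated gene, gave 907 of their summed 1618. The 120 other multi-copy members added 8.97% and the 13 protein-coding starts 5.40%. The 85 other few-copy members held 4.28% and the 47 members with the alpha period 2.06%. In the flanks, by contrast, protein-coding starts held 53.3% of the sum and pentamer-rich regions 3.22%.

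**Figure D1:**
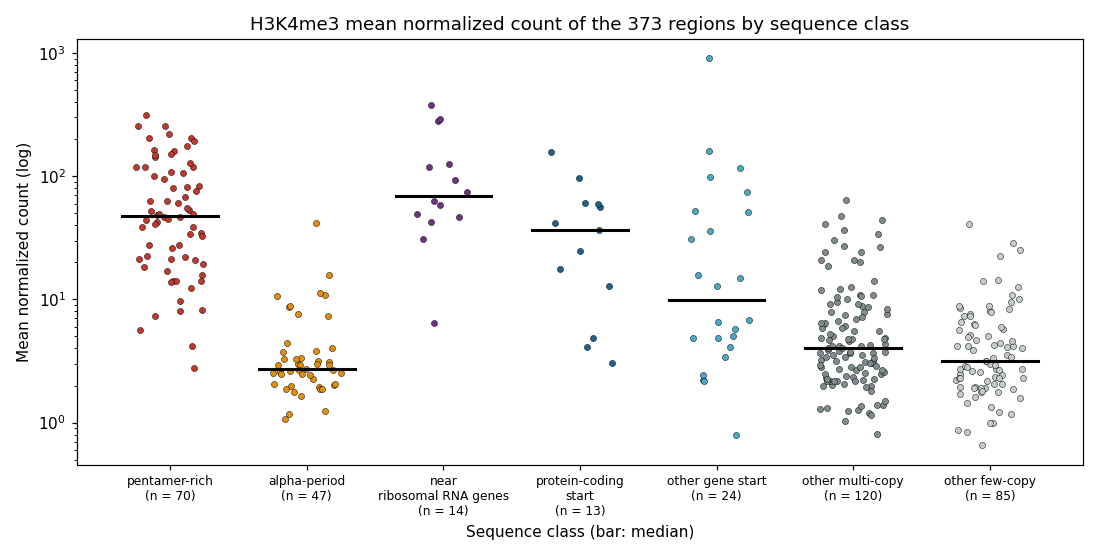
Mean normalized count (log axis) of each of the 373 members by sequence class, with a bar at the median. Pentamer-rich members (median 47.5) and members near ribosomal RNA genes (68.5) lie above the protein-coding starts (36.7), and members with the alpha period (2.74) lie lowest. Counts are not divided by copy number, so multi-copy and single-copy classes are not on one scale.

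Pentamer-rich regions made up 18.8% of the members against 0.238% of all regions, yet most of them lay outside the windows. Of 232 regions in the table with at least 30 units per kb, 30.2% were members and 25% lay in the flanks. The remaining 104 included groups next to other centromeres, such as 3 regions at 5:49599425-49667386 with a median of 431. The median mean normalized count was 47.5 for members (quartiles 21.2 and 108), 5.97 for flank regions (3.59 and 13.5) and 11.9 elsewhere (5.37 and 51.7). The way the windows were chosen bears on this contrast too. Regions with the alpha period were here counted near the ribosomal RNA genes too, which gave 53 members rather than the 47 of the class. Such regions had medians of 2.95 in the windows, 2.78 in the flanks and 2.61 elsewhere. The highest of the 53 had 290, against 41.4 in the class. An unbroken run of 3 CATTC or 3 GAATG units was found in 54 members (14.5%), 57 flank regions (4.13%) and 195 regions of all (0.200%).

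**Figure D2:**
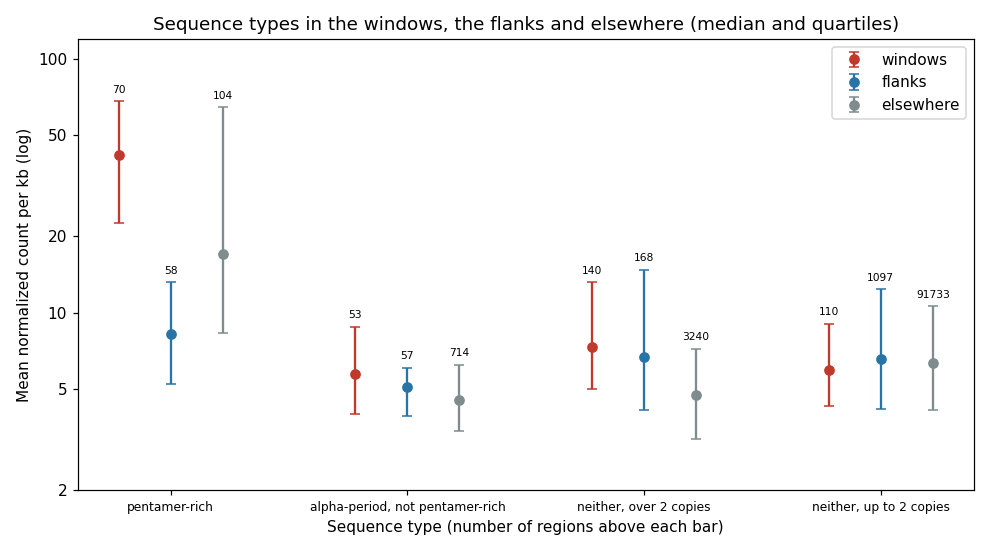
Median and quartiles of the mean normalized count per kb (log axis) of regions by sequence type in the windows, the flanks and the rest of the genome, with the number of regions above each bar. Pentamer-rich regions in the windows (41.8 per kb) lie above those in the flanks (8.27) and elsewhere (17.0), while the other types differ less between places.

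On chromosome 1, a single cluster of 22 members at chr1:143184733-143281385 held 94.7% of the window's sum in 96.7 kb. Pentamer-rich members made up 21 of the 22, with a median of 44.5 units per kb, a GC content of 36.6% and a copy number of 52.0. Their mean normalized counts ran from 14.1 to 316. The highest, chr1:143192432-143195692, had 316 over 3260 bases. It was followed by chr1:143221584-143223072 (255) and chr1:143213105-143214239 (254), and the latter had the highest density of the window at 224 per kb. The closest copy of the first of these, with 96.8% identity, overlaps the second. No annotated gene covers these members. The other 27 members of the window reached at most 27.2. They include the start of NBPF17P, a pseudogene of the NBPF family, at 0.790, and starts of the U1 small nuclear RNA genes RNVU1-17 (5.76 and 4.86) and RNVU1-18 (4.83). Of the 4 genes of the duplicated 1q21 families in the window, NBPF17P was the 1 with a member at its start.

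On chromosome 4, pentamer-rich members form 3 groups. The first, chr4:49097223-49124108, had 8 members that cover 53.4% of its 26.9 kb, with values from 20.8 to 206. Its highest were chr4:49102414-49106055 (206), chr4:49107488-49110738 (203) and chr4:49118749-49121397 (192). The second, chr4:49144249-49156522, had 5 members from 8 to 149 and the highest density of the window, 104 per kb at chr4:49144249-49144983. The third, chr4:49633405-49657886, had 7 members from 12.4 to 52.3. The 20 held between 83.4 and 116 pentamer units per kb (median 103), and the third group lay below the highest members of the first.

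The protein-coding starts of the chromosome 4 window give values at single-copy sequence within the same 2 Mb. FRYL, a gene of the furry family, had the highest of them, 158 over 5613 bases (28.2 per kb). The member at OCIAD1, which encodes a mitochondrial protein, had 96.4 and 25.3 per kb. SLAIN2, a microtubule-associated protein gene, had 4 members at its start sites, the highest at 59.4, with 55.8 beside it. A single member with 60.9 covers start sites of both CNGA1, a cyclic nucleotide-gated channel subunit, and NIPAL1. OCIAD2 had 41.8, the kinase gene TEC 36.7 and SLC10A4 4.82. Of the 10 protein-coding genes whose annotated 5′ end lies in the window, 7 had a member within 2 kb of a start site, and TXK, ZAR1 and CWH43 had none. NIPAL1 is not among the 10, since its annotation begins before the window. The density at the protein-coding starts was at most 36.4 per kb, while the pentamer-rich members of all windows had a median of 41.8 per kb. The pentamer-rich members had a median copy number of 11.2 in hg38, so these densities are not on one scale.

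On chromosome 10, 16 pentamer-rich members at chr10:41844386-41915197 held 92.5% of the window's sum. Their values ran from 7.32 to 220 with a median of 25.1. The highest, chr10:41858171-41860836, had 220 at 82.6 per kb. It was followed by chr10:41880697-41885034 (143) and chr10:41910380-41913876 (82.6). Before this array, 21 members at chr10:41720395-41785049 had at most 4.29, and 12 of them had the alpha period. The other 9 had a median self-identity of 48.5% at that shift, just below the limit, against 29.4% for other few-copy flank regions. The class can thus miss regions close to its limit. The remaining 3 members of the window carried a CENP-B box and copy numbers of 482 to 1028, with mean normalized counts of 3.66 to 7.48. Their median self-identity at the alpha satellite shift was 43.9%, so they fall in the other multi-copy class. No annotated gene start lies within 2 kb of any member here.

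On chromosome 20, the alpha period was the most frequent class, with 32 of 65 members, yet it gave 28.8% of the sum and had a median of 2.92. Its highest member was chr20:28839397-28843374 with 41.4 over 3977 bases, and the window's highest density was at chr20:28453393-28453952, 28.1 per kb with a copy number of 631. A CENP-B box occurred in 3 members of this window, which had copy numbers of 632 to 1331 and counts of 4.40 to 10.9. In all, 6 members held the box (1.61%), against 0.362% of flank regions and 0.191% of all.

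The 2 highest members of the chromosome 20 window were at starts of pseudogenes. The member chr20:29876952-29879479 over DUX4L37, of the DUX4-like family, had 52.1. FRG1 is a gene of the facioscapulohumeral muscular dystrophy region, and its copies FRG1CP, FRG1DP and FRG1EP had 51.4, 36.2 and 31.0 at their starts. By count, the alpha-period member with 41.4 and the multi-copy member chr20:29781201-29782967 with 36.8 rank between FRG1CP and FRG1DP. The members at the 3 FRG1 copies have a GC content of 52.3 to 58.7%. Their densities, 20.5 to 25.6 per kb, lie within the range of the protein-coding starts on chromosome 4. FRG1FP on chromosome 22 had 2.16. The fixed list of duplicated families found 6 pseudogenes in the windows, and the 4 with a member at their start are all copies of FRG1. The other pseudogenes, ANKRD20A17P and FRG2EP, had none.

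On chromosome 21, the highest member of all was chr21:6367386-6374600, with 907 over 7214 bases (126 per kb). It lies in no annotated gene, 1431 bases from the start of a Y_RNA gene, and its 24-base copy number is 2. A reverse-strand copy with 99.5% identity lies on a chromosome 17 sequence that is not localized in hg38. Accordingly 96.7% of its 50-base stretches were unique on the assembled chromosomes but only 13.3% on all sequences. The 7 members at starts of noncoding genes or pseudogenes held 32.0% of the window's sum, and this one gave 907 of their summed 1212. TEKT4P2, a tektin pseudogene, had 116 at its start, and a member at the noncoding gene ENSG00000278932 had 159.

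The 14 members near the 5.8S ribosomal RNA genes lie at chr21:8219761-8465734 and held 43.8% of the window's sum. Their values ran from 6.49 to 376, with a median of 68.5 and a median density of 133 per kb, the highest of the classes. The highest were chr21:8464384-8465734 (376), chr21:8419846-8420710 (290) and chr21:8219761-8220402 (282), and the last had the highest density of all members, 440 per kb. The member nearest to an annotated 5.8S gene start, 1091 bases from RNA5-8SN1, had the lowest count, 6.49, and the highest GC content, 75.6%. No member overlaps any of the 7 annotated 5.8S genes of the windows. Of the ribosomal RNA genes on the fixed list, only 5.8S genes are annotated there, so overlap with the others could not be checked. The class median of unique 50-base stretches was 9.17%.

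Pentamer-rich members on chromosome 21 numbered 11. Of these, 9 lie at 7916909-7958906, with values from 2.75 to 163, and one of them, chr21:7939068-7954343, is the widest member at 15275 bases, with 152. The median copy number of the 11 was 2.00, against 52.0, 11 and 9 for pentamer-rich members of chromosomes 1, 4 and 10, and the widest had 9.94 counts per kb. None of the 9 genes known as second copies on this chromosome arm (such as CBSL and U2AF1L5) is listed by name in GENCODE release 44, which has 12 genes of the type artifact in the window. Of the partners on the long arm, 8 are listed by name and FAM243A is not. Among the 8, only U2AF1, a splicing factor gene, had a region within 2 kb of a start site (9.75).

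On chromosome 22, the sum was small and was spread over classes. The highest members were chr22:11470485-11482135 (98.8), chr22:11815402-11816075 (64) and chr22:11489564-11493716 (47.8). The first is 11650 bases wide, so that its density is only 8.48 per kb, and it covers the start of the pseudogene ENSG00000288262. The second is narrow, with 95 per kb and a copy number of 21. It also has a copy in the flank at chr22:12176304-12176968 with 94.7% identity, where a region has 94.7 counts.

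**Figure D3:**
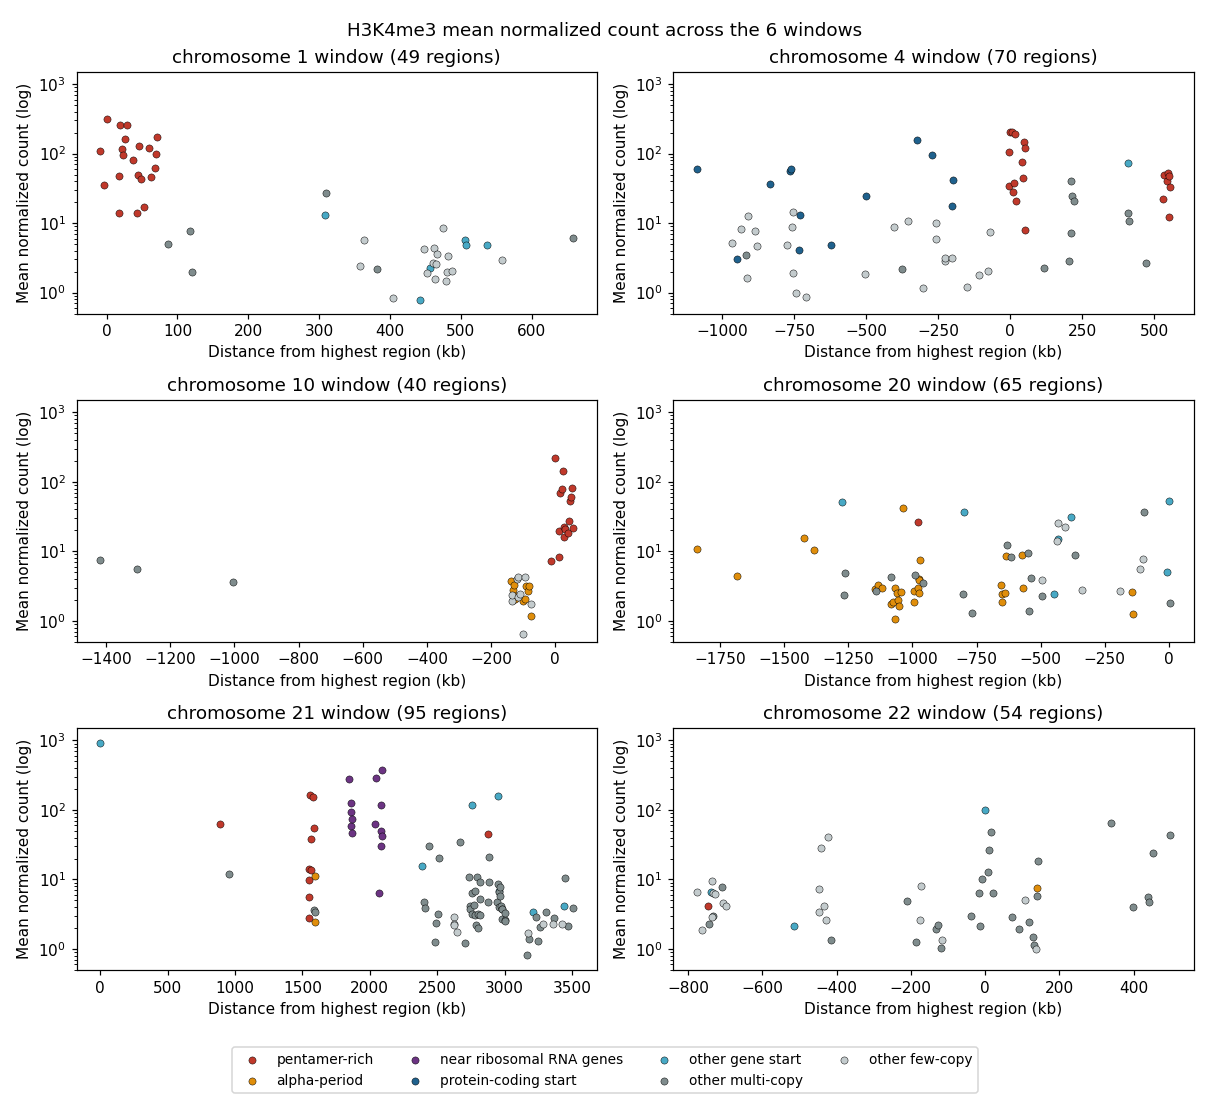
Mean normalized count (log axis) of every member against its distance in kb from the highest member of its window, coloured by sequence class. The pentamer-rich members of chromosomes 1 and 10 form tight columns up to 316 and 220. Those of chromosome 4 lie in separate groups up to 206, and the members near ribosomal RNA genes of chromosome 21 reach 376.

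**Figure D4:**
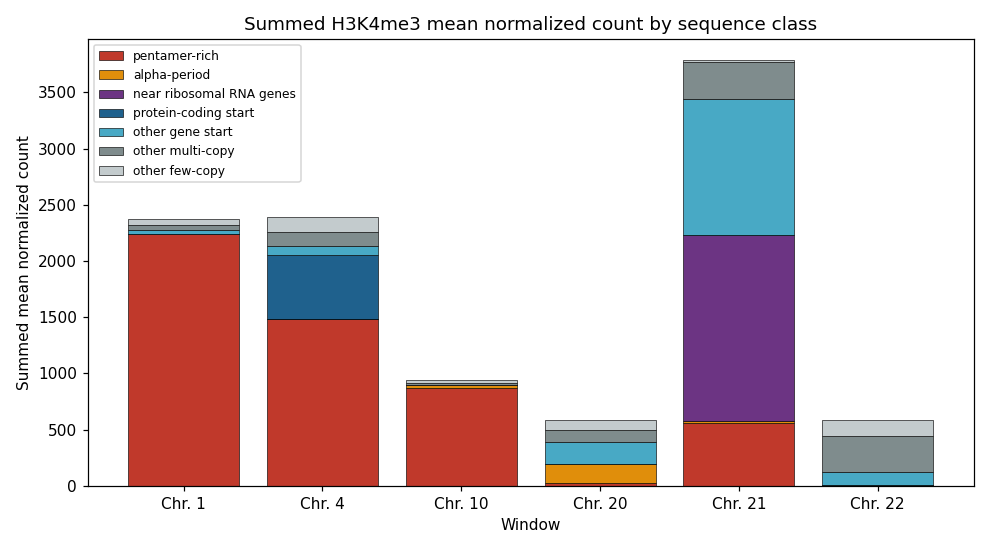
Summed mean normalized count of the members of each window, stacked by sequence class. The sums are 2374, 2395, 939, 584, 3786 and 589 for chromosomes 1, 4, 10, 20, 21 and 22, and pentamer-rich members hold 94.4%, 61.8% and 92.5% of those of chromosomes 1, 4 and 10.

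Aligned to hg38, 294 of the 373 members had another place that covered at least 80% of their length. The closest such copy lay on an unplaced or unlocalized sequence for 124 members, on the same chromosome for 101 and on another chromosome for 69. Chromosome 21 stood out, with 57 of the 59 members whose closest copy was an unplaced sequence of at least 99% identity. Short stretches were shared with other chromosomes, inside or outside the windows there. At least 50% of the sampled 24-base stretches of 38 of the 95 chromosome 21 members also occur on chromosome 22, and 18 of the 49 chromosome 1 members share theirs with chromosome 10.

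Where the closest copy was on an assembled chromosome, 61 of 170 copies overlapped a region of the table, and 44 of these regions were themselves members. The 61 make 56 distinct pairs, since some members are each other's closest copy. Identity ran from 52.3 to 99%, and the 9 lowest were of pentamer-rich members. The higher of the pair had a median of 2.15 times the lower (95% interval 1.56 to 2.57), and 30 of the 61 were within 2-fold. With each pair taken once the median was 2.20. The regions of a pair differ in width, and per kb the median ratio was 1.54, with 42 of 61 within 2-fold (per-kb and single-pair values were added after the data were seen). The largest ratio, 46.4, was between a few-copy member of chromosome 1 with 4.18 and a region with 194. Per kb these had 8.37 and 53.6, the largest ratio on that scale too (6.41). The pair of the chromosome 1 array named above had 255 and 254. The members at FRG1DP and FRG1EP, 93.9% identical, had 36.2 and 31.0. Of the 11 members with a placed copy of at least 99% identity, 1 had a region at that copy, chr21:8759579-8760079, with 15.7 against 44.2 on chromosome 22 (31.3 and 36.3 per kb). How the aligner shared reads among such copies is not given in the sources used here, and its part in these values was not tested.

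**Figure D5:**
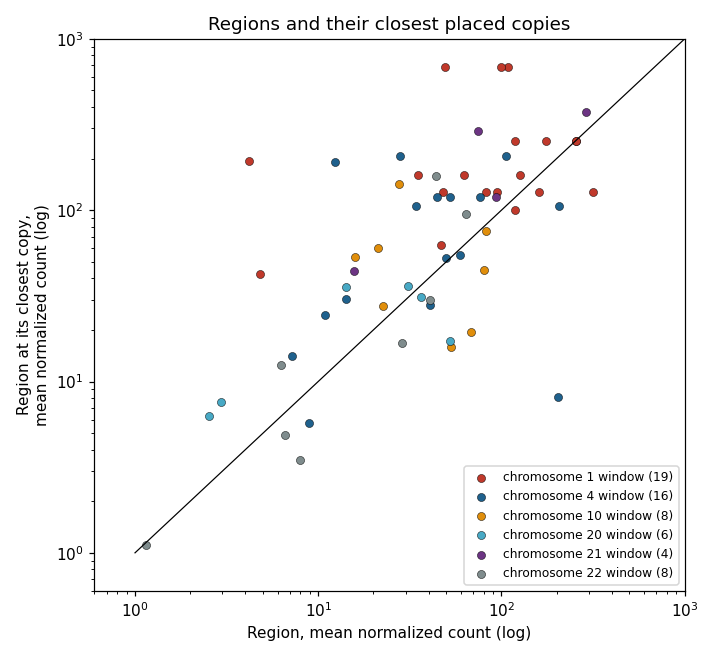
Mean normalized count of 61 members (horizontal log axis) against that of the region at their closest placed copy (vertical log axis), coloured by window, with a line at equal values. The member is the higher of the pair in 20 cases, and 30 points lie within 2-fold of the line.

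The nearest regions on either side of a window edge can lie far apart. The last region before the chromosome 1 window, chr1:125182925-125184435, had 74.4 with a copy number of 58, and the first member after it had 109. A neighbouring region at chr1:125179019-125180859 had 684 and is 98.9% identical to that first member over the member's length. On chromosome 21 the last region before the window, chr21:5289918-5290418, had 2.12 and the first member, chr21:6367386-6374600, had 907. On chromosome 10 the last member, chr10:41914688-41915197, had 21.4 and the next region outside, chr10:42093848-42094348, had 5.43.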

How the data were processed

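H3K4me3 was measured by MINT-ChIP in 8 samples of EndoC-βH3 cells, 4 non-senescent and 4 senescent, and the 16 samples of the other 2 marks were not analysed here. The authors used Bowtie2 for alignment to hg38, samtools, HOMER for peaks and DESeq2 for counts. The paper names input controls for the H3K27ac and H3K4me1 peaks and none for the H3K4me3 peaks. Tool versions, peak merging, counting and the handling of duplicate or multiply placed reads are not given in the sources used here. The signal value used is the authors' deposited mean of DESeq2-normalized counts over samples. The other 5 deposited columns hold the authors' own comparison (log2 fold change, its standard error, test statistic, p-value and adjusted p-value) and were not used. No value per sample was analysed, so no test was run and depth per sample is unknown.

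Gene starts came from GENCODE release 44 and sequence from hg38. Copy numbers used up to 60 stretches per region, counted on both strands of 194 hg38 sequences without alternate loci, with a counter checked on simulated sequence. The alpha satellite period is the best self-identity at shifts of 168 to 174 bases, and pentamer-rich regions, whose units also repeat at 170 bases, were set apart first. The CENP-B box was searched by its consensus on both strands. Members were aligned with minimap2 2.31 (asm20). Python 3.11.15, scipy 1.17.1 and pysam 0.24.0 were used. Intervals are Wilson or exact binomial (95%), and those of medians use order statistics.

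Named members are the 3 with the highest mean normalized count and the 1 with the highest count per kb of each window, and those at genes of fixed lists. Other members were named after their values were seen. Members, lists and limits were chosen with earlier results of these data known.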

Additional observations from a re-analysis of the deposited data

How the results depend on the processing

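Each alternative was compared with the values for all members against the 5 Mb flanks, and 43 of 60 stayed within the interval of the main value, while none changed direction. The copy-pair ratio sets the higher count over the lower, so it could not change direction. The intervals of the differences in share and of the ratio of median counts leave out the counting error of the flanks. The ratio of regions per Mb (1.15) became 1.45 without the chromosome 10 window and 1.01 (0.888 to 1.14) without the chromosome 22 window. Its interval also included 1 without chromosome 4 (0.939 to 1.21) or chromosome 1 (0.986 to 1.27). It began at 1.00 without chromosome 21 and lay above 1 without chromosome 10 or 20. The difference in multi-copy share (48.3 percentage points) was 32.1 with 36-base stretches, 39.1 with flanks of 2 Mb, 57.4 for mean normalized counts of at least 5 and 41.2 at a copy number over 4. The difference in protein-coding starts (-13.1 points) was -9.16 with flanks of 2 Mb, -22.2 for counts of at least 5, -10 without chromosome 20 and -16.6 without chromosome 4, where all 13 such members lie. The difference in runs of 3 pentamers (10.3 points) was 14.6 for 30 units per kb, chosen after the data were seen, 21.5 for counts of at least 5 and 6.20 without chromosome 4. The difference in median GC content (-1.73 points) was -0.797, -0.120 and -3.41 without chromosomes 1, 20 and 4. The ratio of median counts (1.17) ran from 1.01 without chromosome 4 to 1.43 without chromosome 20, and the copy-pair ratio (2.15) was 2.07 for copies that cover at least 95%, and, both added after the data were seen, 2.20 with each pair once and 1.54 per kb. The cause of these shifts was not tested, beyond the smaller sets of regions they use.

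No paired analysis was possible because the table holds no value per sample. Leaving out replicates was not run for lack of such values. The mean is taken over both states, so the samples behind a region's count are not shown, and counts from near-identical copies cannot be told apart.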

Other observations

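Pentamer-rich regions outside the windows and their flanks had high values in a few groups. At 16:46382598-46401633, 6 regions had a median mean normalized count of 167 and a maximum of 719, and at 16:34071313-34595733, 7 regions had a median of 38.5 and a maximum of 275. At 17:26794409-26940768, 16 regions had a median of 4.40 and a maximum of 15.8, although their median pentamer content, 68.0 units per kb, was above the 37.0 and 45.1 of the chromosome 16 groups. In the flank of chromosome 20, 17 pentamer-rich regions at 20:31051801-31242513 had a median of 17.5 and a maximum of 194, and in that of chromosome 21, 18 regions at 21:10680111-10738317 had a median of 5.86.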
